A study of Oryctolagus cuniculus with 6 samples.

Results

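The genes described here are the 127 genes of 22190 in the deposited rabbit table that carried the gene ontology (GO) term for defense response to virus, without the inflammasome adaptor PYCARD and without identifiers beginning with IL, CXCL, CCL, NLRP, RAB, HSP, DNAJ, RPL, RPS or PSM. The term was carried by 129 genes, of which the rule removed 2. No count entered the rule. The theme itself, however, was selected on values of the same comparison of preconditioned with fresh libraries, so the calls and adjusted p values of the members are a description of these libraries and are not independent evidence. Of the members, 44 had only an identifier beginning with LOC, and for these the description in the table is given beside the identifier. LOC100352110, described as a PYCARD-like protein, and LOC100348957, described as an NLRP-like protein, stayed in because their identifiers begin with LOC.

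RNA-seq was performed on primary limbal stem cells (LSCs), the epithelial progenitors at the border of the cornea, which had grown out from rabbit limbal explants in a keratinocyte medium. The fresh group held 3 libraries from explants of fresh corneas. The preconditioned group held 3 libraries from explants of corneas that had first been kept for 7 days in liquid nitrogen, in a freezing medium containing the inflammatory cytokine IL-1β at 10 ng/mL. Freezing and IL-1β were therefore applied together and cannot be told apart, both groups had passed through explant culture, and neither the labels nor the methods say which animal each library came from, so the p values measure only the spread between these libraries.

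In the interferon system, sensors in the cytosol such as RIG-I, MDA5 and cGAS bind foreign or misplaced RNA or DNA and signal through the adaptors MAVS and STING and the kinase TBK1 to interferon regulatory factors. These factors switch on interferons, which act on receptors at the cell surface and, through STAT proteins and IRF9, raise the transcription of a large set of interferon-induced genes whose products block viral replication. Many of the sensors are interferon-induced themselves. Epithelia of the body surface use this system and respond to interferon lambda through the receptor IFNLR1.

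The libraries held 31952352 to 34327534 counts on genes, and no pair of libraries of one group agreed within counting noise, so each was counted as 1 sample. Along the first principal component, which took 50.4% of the variance, the libraries lay apart, with the fresh libraries between -53.1 and -41.1, preconditioned 1 apart from its group at 8.13, and preconditioned 2 and 3 at 58.3 and 70.4. Of 9 markers of corneal and limbal epithelium, 7 were in the table under these names (KRT12 and KRT14 were not), and their summed level was 9758 to 13488 CPM (counts scaled to a common library size) in the fresh and 9167 to 13502 CPM in the preconditioned libraries. KRT5, a keratin of basal epithelial cells, was at 8387 to 10688 CPM and 7337 to 11740 CPM. TP63, the marker of limbal progenitors, was at 226 to 246 CPM and 112 to 183 CPM. Both KRT5 and TP63 were detected in every library. TP63 was lower in the preconditioned group without overlap (18.8% of all tested genes), with a log2 fold change of -0.77 (adjusted p = 0.0588 by edgeR). EPCAM, another marker of the list, was at 77.5 to 91.8 CPM and 102 to 126 CPM. It was higher without overlap (17.9% of all tested genes), with a log2 fold change of 0.50 (adjusted p = 0.0601 by edgeR). Most of the sum was KRT5, so it says little of the other markers. PAX6, a transcription factor of the eye, was at 174 to 218 CPM in the fresh libraries and at 203, 376 and 459 CPM in preconditioned 1, 2 and 3, and KRT3, a keratin of the differentiated cornea, was at 409 to 2655 CPM and 239 to 801 CPM (adjusted p = 0.112 and 0.296 by edgeR). The 11 leukocyte markers summed to 194 to 251 CPM in the fresh group and 191 to 396 CPM in the preconditioned group, most of it from CD68 and LAPTM5. CD68, a lysosomal protein of macrophages, was at 93.4 to 129 CPM in the fresh libraries and at 121, 300 and 288 CPM in preconditioned 1, 2 and 3 (adjusted p = 0.0848 by edgeR). As for PAX6, preconditioned 1 lay within the fresh range and preconditioned 2 and 3 above it. PTPRC, the defining leukocyte marker, had 7 to 17 counts in the fresh and 9 to 47 in the preconditioned libraries, and the T cell marker CD3E had at most 1 count. Of the 9 tested leukocyte markers 1 was called, LOC100341160, described as lysozyme, with 1150 to 2250 counts in the fresh and at most 1 in the preconditioned libraries. The part of any of these markers in the results was not tested. Of 6 markers of plasmacytoid dendritic cells, which are strong producers of interferon, 2 were in the table. IRF8 had 1 to 8 counts, and TCF4 had 797 to 1201 counts in the fresh and 438 to 921 in the preconditioned libraries. The 9 identifiers of the fibroblast and keratocyte list summed to 431 to 846 CPM and 618 to 1338 CPM, the 4 endothelial markers to 2.67 to 3.13 CPM and 1.07 to 13.0 CPM, and the 4 melanocyte markers to at most 0.396 CPM. In these bulk samples, fewer cells that express a gene and less RNA of that gene per cell cannot be told apart.

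Of the 127 members, 109 passed the filter on low counts and were tested. A gene was called when the quasi-likelihood test of edgeR, with Benjamini-Hochberg adjustment, gave it an adjusted p of 0.05 or less and its absolute log2 fold change, given throughout as preconditioned minus fresh, was at least 1. No member was called higher in the preconditioned group, where 1.08% of all 15029 tested genes were, and 4 members were called lower, where 1.20% of all tested genes were. Of these 4, 3 had no preconditioned library above the filter and so were tested only because of the fresh libraries, where they were high, which makes their calls depend on the difference itself. This held for 5 of the 109 tested members, all with a log2 fold change below -1, for 0.739% of all tested genes and for 35 of the 181 genes called lower. Without these 5 the median of the tested members was -0.36, 31 of 104 had a log2 fold change of -1 or less, and 1 was called. At an unadjusted p under 0.05, edgeR gave 5 members higher (15.5% of all tested genes) and 30 lower (15.1% of all tested genes). DESeq2 called 0 higher and 13 lower, where it called 3.62% and 4.17% of all genes. The median log2 fold change was -0.41 over the tested members and 0.01 over all tested genes. A log2 fold change of -1 or less was found in 36 tested members (33.0%, against 7.08% of all tested genes), and none had a log2 fold change of 1 or more (6.56% of all tested genes). In 42 members all 3 preconditioned values lay below all 3 fresh values in CPM, which held for 18.8% of all tested genes, and in 4 members they lay above, which held for 17.9%. With 3 libraries against 3, an exact two-sided permutation test of 1 gene cannot go below p = 0.1. The count of calls moved with single libraries. Without preconditioned 1 the 4 calls were kept and 18 members in all were called lower, as were 6.01% of all genes then tested, whereas none was called without fresh 1, 2 or 3 or preconditioned 2, and 1 was called without preconditioned 3.

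The members fell into 7 groups by what their products do, and their fold changes were lowest among the effectors and the sensors. The differences between the groups were not tested. The 27 interferon-induced effectors had a median log2 fold change of -1.52 and the 14 tested sensors one of -1.09. The 17 restriction factors had a median of -0.25, the 10 subunits of RNA polymerase III one of -0.35, and the 27 other tested members one of -0.14. For the 13 signalling proteins the median was 0.06. The standard errors differed as well, with a median SE of 0.998 among the effectors and 0.23 over all tested genes.

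**Figure D1:**
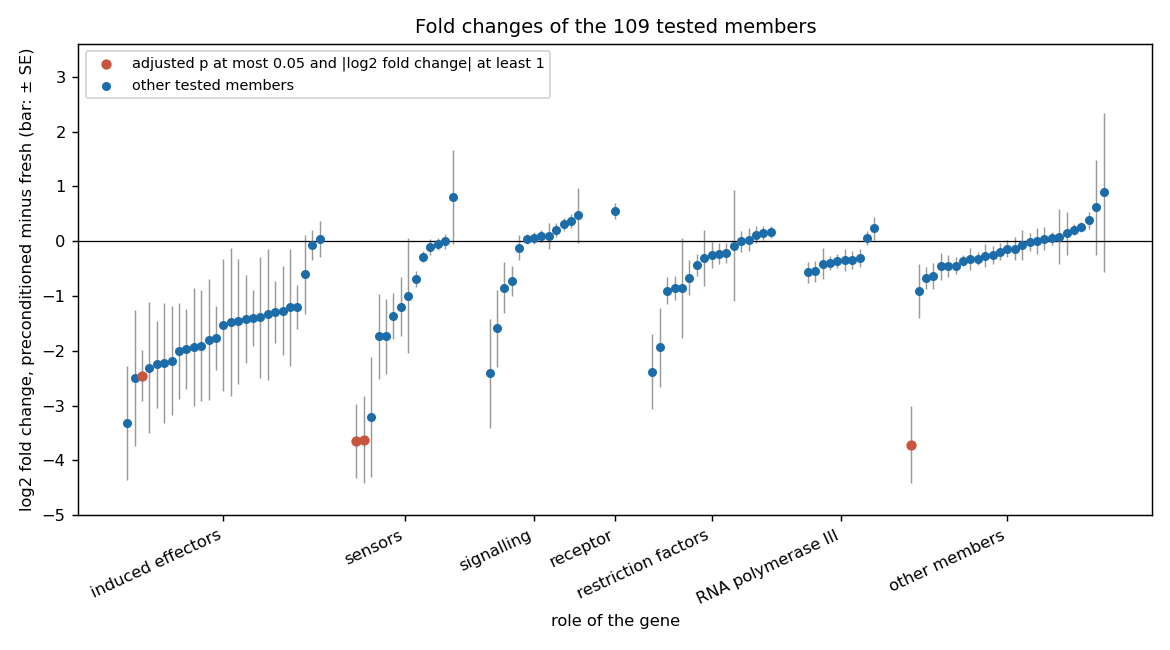
The log2 fold change (preconditioned minus fresh) of each of the 109 tested members is plotted as a point with its SE as a bar, grouped by role and sorted within each role, and the 4 members called lower are red. Most effectors lie between -1 and -3 with wide bars, whereas the RNA polymerase III genes and most signalling genes lie near 0 with short bars.

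Several interferon-induced effectors were among the most abundant members when the libraries were averaged, although their levels differed widely between libraries. By mean FPKM over the 6 libraries, a unit that takes account of gene length, the highest members were, with both groups pooled, LOC100353245, described as interferon-induced transmembrane protein 3, which hinders the entry of viruses (513 FPKM), OASL, an OAS-like protein that enhances RIG-I signalling (368 FPKM), IFIT3 (248 FPKM), LOC100358539, described as the guanylate-binding protein GBP1 (206 FPKM), and the cytidine deaminase APOBEC3A (175 FPKM). The order differed between the groups. In the fresh group LOC100353245 (814 FPKM), OASL (594 FPKM) and IFIT3 (365 FPKM) led, whereas in the preconditioned group LOC100353245 (213 FPKM) was followed by APOBEC3A (161 FPKM), OASL (142 FPKM), IFIT3 (130 FPKM) and the RNA helicase DDX17 (127 FPKM). In preconditioned 3 alone DDX17 was the highest member, at 135 FPKM. Summed over the 27 effectors, the level was 5490, 12641 and 6612 CPM in fresh 1, 2 and 3 and 5945, 2053 and 416 CPM in preconditioned 1, 2 and 3. On this scale preconditioned 1 lay within the range of the fresh libraries, while preconditioned 2 and 3 lay below it. As a share of all counts, without scaling, the effectors took 0.579%, 1.34% and 0.704% in the fresh and 0.573%, 0.187% and 0.0396% in the preconditioned libraries, so that preconditioned 1 was then just below fresh 1. The mean of this sum was 8248 ± 3846 CPM (SD, n = 3) for fresh and 2805 ± 2840 CPM (SD, n = 3) for preconditioned libraries.

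Gene by gene the same libraries stood out. Preconditioned 3 was the lowest of the 6 libraries in 27 of 27 effectors, which held for 21.8% of all tested genes, and lay below all fresh libraries in each of them. Preconditioned 2 lay below all fresh libraries in 24 effectors (38.7% of all tested genes) and preconditioned 1 in 15 (33.3% of all tested genes), with 9 effectors inside the fresh range (34.4% of all tested genes) and 3 above it. Fresh 2 was the highest library in 23 effectors (15.4% of all tested genes), and in those same 23 preconditioned 3 was the lowest, a combination found in 6.09% of all tested genes. The range between the 3 preconditioned libraries had a median of 3.55 on the log2(CPM + 1) scale over the effectors and 0.44 over all tested genes. Between the fresh libraries the median range was 1.07 for the effectors and 0.31 for all tested genes. In 17 effectors the preconditioned range was over 3 (0.692% of all tested genes). Genes of one library share that library, so these counts describe 6 libraries and are not replicates. The order of the preconditioned libraries was the one they had on the first principal component, and whether the 2 orders are related was not tested.

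**Figure D2:**
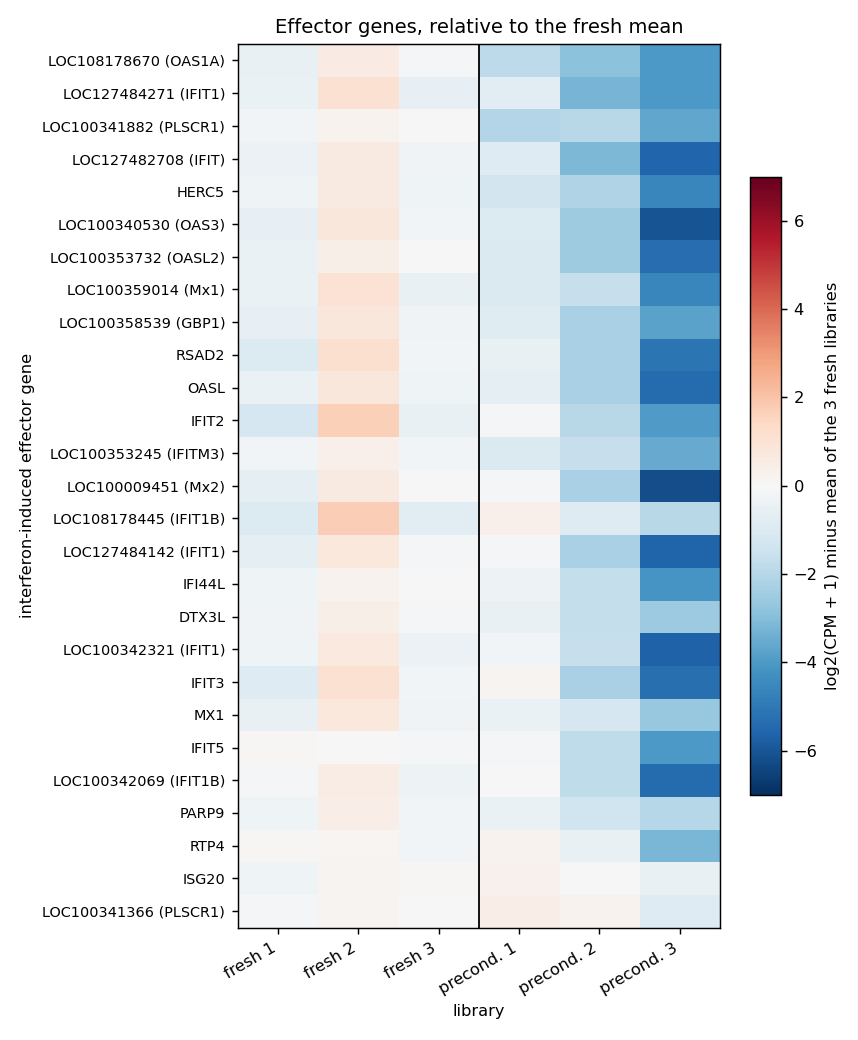
Each row is an interferon-induced effector and each column a library, and the colour is log2(CPM + 1) minus the mean of the 3 fresh libraries. Fresh 2 is red in most rows, preconditioned 1 is close to white in many rows, and preconditioned 2 and 3 are blue in most rows, with preconditioned 3 the lowest of the 6 libraries in all 27.

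OASL had 26248, 65439 and 31686 counts in the fresh libraries and 22284, 6917 and 750 in the preconditioned libraries. The groups did not overlap, and the fresh mean was 46.8 times the level of preconditioned 3 but 3.75 times the preconditioned mean. Its log2 fold change was -1.91 ± 1.01 (SE) with an adjusted p of 0.247 by edgeR. The neighbouring gene LOC100353732, described as a 2'-5'-oligoadenylate synthase-like protein, had 2190, 4139 and 3276 counts against 1423, 463 and 35. Enzymes of the OAS family sense double-stranded RNA and make short oligoadenylates that trigger the decay of RNA. LOC100340530, described as OAS3, had 202, 509 and 257 CPM in the fresh and 152, 52.9 and 3.46 CPM in the preconditioned libraries, a log2 fold change of -2.22 ± 1.10 (SE, adjusted p = 0.219 by edgeR). LOC108178670, described as OAS1A and adjacent to OAS3 in gene order, had 370, 858 and 556 counts in the fresh and 120, 41 and 1 in the preconditioned libraries. Its log2 fold change of -3.32 ± 1.04 (SE) had an adjusted p of 0.0931 by edgeR, and it was called without preconditioned 1 (adjusted p = 0.0445 by edgeR). In all 4 OAS family genes the 3 preconditioned libraries lay below the 3 fresh ones, as they did in 18.8% of all tested genes. None of the 4 was called by edgeR or DESeq2, while limma on log2(FPKM + 1) called LOC108178670 (log2 fold change -2.69, adjusted p = 0.0370).

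The 9 members of the IFIT family, whose products bind viral RNA that lacks the marks of host RNA, summed to 1970, 4946 and 2445 CPM in the fresh libraries and 2812, 675 and 72.4 CPM in the preconditioned libraries. IFIT3 had 12198, 49308 and 21426 counts in the fresh group and 25148, 4336 and 488 in the preconditioned group. Preconditioned 1 was thus higher than fresh 1 and fresh 3, and the log2 fold change was -1.34 ± 1.19 (SE, adjusted p = 0.477 by edgeR). IFIT2 had 73.2, 530 and 116 CPM against 155, 42.9 and 9.68 CPM. It showed the widest difference among the fresh libraries of the IFIT genes named by symbol, with fresh 2 at 7.23 times fresh 1. IFIT5 was alike in the fresh libraries, at 222, 213 and 197 CPM, and spread over the preconditioned ones, at 188, 61.7 and 12.1 CPM. LOC127484142 and LOC100342321, both described as IFIT1, and LOC100342069, described as IFIT1B, had log2 fold changes of -1.46, -1.39 and -1.21 with overlapping groups. All 9 IFIT genes had log2 fold changes from -2.51 to -1.21, the lowest adjusted p among them was 0.220 by edgeR, and in 3 of them the groups did not overlap, all lower (18.8% of all tested genes). Of the 9, 8 lie in a run of 14 genes in RefSeq gene order of the assembly mOryCun1.1. Near-identical copies in such a run can split or share reads in the authors' counting. The sums over the family do not depend on how the counted reads were divided within it. Reads that matched several copies and were left uncounted would, however, be missing from these sums too. How such reads were handled is not given in the sources used here.

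The 3 Mx genes, which encode dynamin-like GTPases that trap viral nucleocapsids, lie within 4 genes of each other and summed to 563, 1392 and 735 CPM in the fresh libraries and 623, 265 and 60.0 CPM in the preconditioned libraries. MX1 had 7982, 19352 and 10263 counts against 7736, 4533 and 1539, and LOC100009451, described as Mx2, had 7682, 19260 and 12680 counts against 10234, 2232 and 114. The log2 fold changes were -1.29 ± 0.57 and -1.52 ± 1.21 (SE), with adjusted p values of 0.181 and 0.424 by edgeR. Both genes overlapped between the groups through preconditioned 1. The third, LOC100359014, described as Mx1, had 3765, 10874 and 3945 counts against 2499, 1531 and 170, with separate groups and the lowest log2 fold change of the 3 (-2.0 ± 0.88 SE, adjusted p = 0.178 by edgeR). RSAD2, which encodes viperin, a radical SAM enzyme that makes a chain-terminating nucleotide, had 153, 637 and 257 CPM in the fresh and 207, 60.1 and 7.57 CPM in the preconditioned libraries (log2 fold change -1.93 ± 1.07 SE, adjusted p = 0.268 by edgeR). LOC100358539 (GBP1) had 560, 1439 and 695 CPM against 453, 173 and 61.3 CPM, and LOC100353245 (IFITM3) had 441, 653 and 437 CPM against 247, 160 and 42.1 CPM. In both of these the groups were separate, the adjusted p values were 0.128 and 0.102 by edgeR, and DESeq2 called IFITM3 (adjusted p = 0.00504) and, among the Mx genes, MX1 (adjusted p = 0.0484).

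Of the 27 effectors, 1 was called lower by edgeR and 5 by DESeq2, where 1.20% and 4.17% of all genes were. LOC100341882, described as phospholipid scramblase 1, an interferon-induced membrane protein, had 2148, 3037 and 2527 counts in the fresh and 545, 565 and 146 in the preconditioned libraries. It differed from the other effectors in that preconditioned 1 was as low as preconditioned 2, and its log2 fold change was -2.46 ± 0.47 (SE, adjusted p = 0.0413 by edgeR). The call was kept without preconditioned 1 (adjusted p = 0.0380 by edgeR) and without preconditioned 3 (adjusted p = 0.0166 by edgeR) and was lost without any of the other 4 libraries, at adjusted p values from 0.101 to 0.145 by edgeR. It was also lost with no filter on low counts (adjusted p = 0.0693 by edgeR) and with the replicate block (adjusted p = 0.0861 by edgeR). The adjacent gene LOC100341366, also described as phospholipid scramblase 1, had 3013, 3888 and 3442 counts against 4440, 3551 and 1549, with a log2 fold change of 0.04 ± 0.33 (SE), so the pair of copies did not show the same values. ISG20, an exonuclease, had 282, 423 and 394 counts against 415, 314 and 207 (log2 fold change -0.06 ± 0.27 SE), and RTP4, a chaperone of receptors, had 6293, 6817 and 5601 against 6781, 3825 and 551 (log2 fold change -0.60 ± 0.72 SE). These 3 genes were the effectors with a log2 fold change above -1. In each of them preconditioned 3 was again the lowest library. Without preconditioned 1 the median log2 fold change of the 27 effectors was -2.95 and 6 were called lower, as were 6.01% of all genes then tested. The median was -1.17 without fresh 2 and -1.02 without preconditioned 3. With the replicate block it was -2.47, and with limma on log2(FPKM + 1) and log2(FPKM + 0.1) it was -2.42 and -2.62. DESeq2 and the other scalings and filters gave -1.52 to -1.67.

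**Figure D3:**
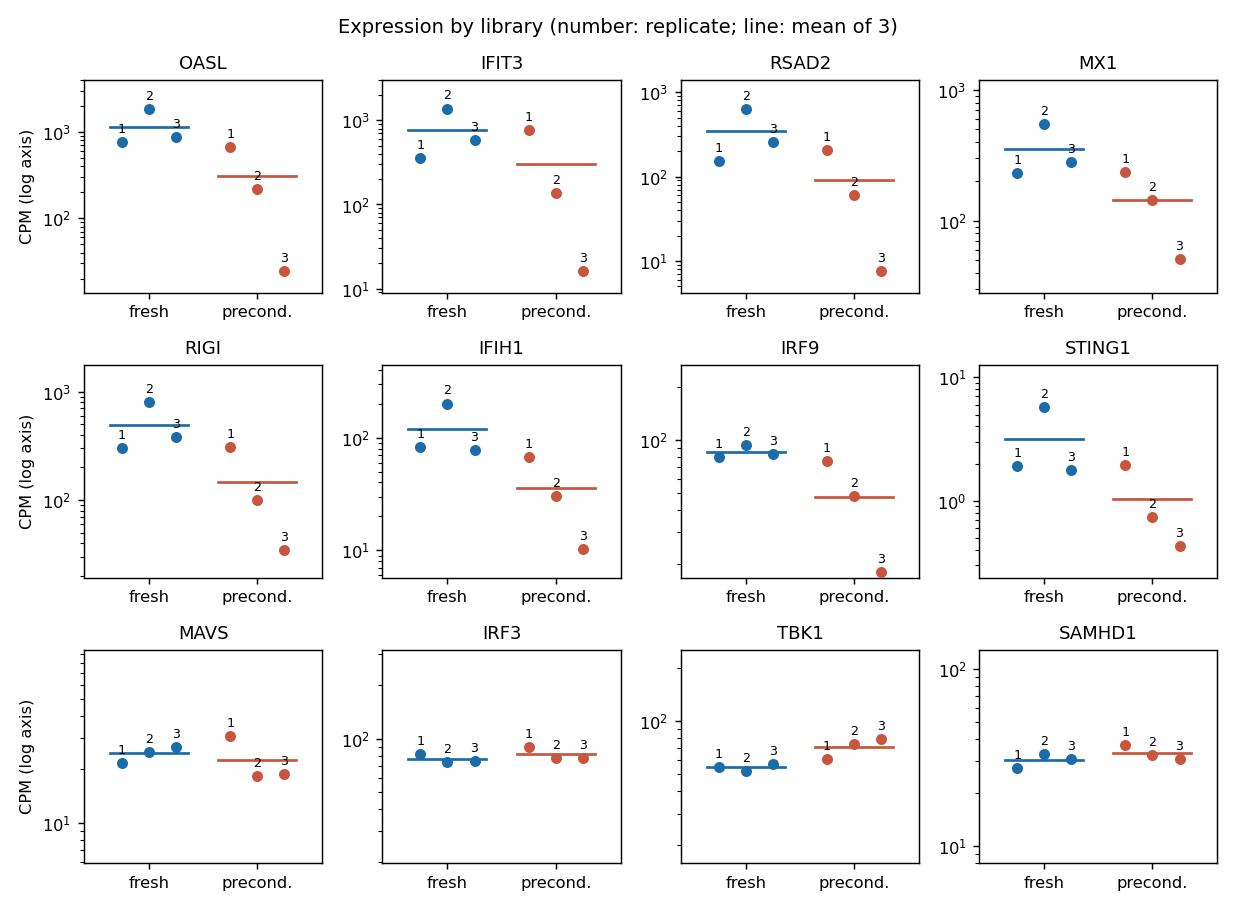
CPM on a log axis is plotted for 12 members, with a point per library numbered by replicate and a line at the mean of the 3 libraries of each group. OASL, IFIT3, RSAD2, MX1, RIGI and IFIH1 are highest in fresh 2 and lowest in preconditioned 3, whereas MAVS, IRF3, TBK1 and SAMHD1 keep within a narrow range.

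Among the sensors of foreign RNA, RIGI, IFIH1 and DHX58 are themselves interferon-induced. RIGI had 10335, 28509 and 13997 counts in the fresh and 10155, 3152 and 1050 in the preconditioned libraries, with a log2 fold change of -1.74 ± 0.78 (SE, adjusted p = 0.186 by edgeR). IFIH1, which encodes MDA5, had 2819, 7119 and 2832 counts against 2195, 957 and 313, with the same log2 fold change of -1.74 ± 0.69 (SE, adjusted p = 0.149 by edgeR), and its groups did not overlap. DHX58, which encodes LGP2, a helper of both, had 2327, 4541 and 3236 counts against 2316, 1212 and 447 (log2 fold change -1.19 ± 0.53 SE, adjusted p = 0.186 by edgeR). For all 3 the fresh group held its highest value in fresh 2 and the preconditioned group its lowest in preconditioned 3. Without preconditioned 1, RIGI was called (log2 fold change -2.88, adjusted p = 0.0474 by edgeR). A second gene described as this receptor, LOC127485854, had 981, 184 and 730 counts in the fresh and 1994, 820 and 190 in the preconditioned libraries, with a log2 fold change of 0.80 ± 0.86 (SE) that became -0.14 without preconditioned 1. It took 0.641% to 8.67% of the counts of the pair in the fresh and 15.3% to 20.6% in the preconditioned libraries. As reads may be shared between such copies, its direction is uncertain, and the pair summed to 328, 807 and 403 CPM against 370, 127 and 40.8 CPM.

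CGAS, the DNA sensor that makes the messenger cGAMP, was low, with 144, 222 and 202 counts in the fresh and 104, 59 and 34 in the preconditioned libraries, and the groups did not overlap (log2 fold change -1.37 ± 0.41 SE, adjusted p = 0.0833 by edgeR). DESeq2 called it (adjusted p = 0.0107), and so did edgeR without preconditioned 1 (adjusted p = 0.0177). Among the helicases that also serve general RNA metabolism, DDX17 had 23256, 23117 and 22803 counts against 21467, 17717 and 19982, and DDX1 had a log2 fold change of 0.00 ± 0.14 (SE). DDX21 had 5180, 5762 and 5774 counts against 3903, 2574 and 2765 and an adjusted p of 0.0486 by edgeR, but its log2 fold change of -0.69 was short of the cutoff. TLR9, an endosomal DNA sensor, had at most 2 counts and was not tested.

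The helicase DDX60, an interferon-induced partner of RIG-I, was represented by 10 copies that differed widely in abundance. LOC100345657 took 98.0% to 99.8% of the counts of these copies, with 5532, 8965 and 5781 counts in the fresh and 6455, 2705 and 117 in the preconditioned libraries. It overlapped between the groups and was not called (log2 fold change -0.99 ± 1.05 SE, adjusted p = 0.553 by edgeR). Calls by edgeR fell on copies with few counts, which had no preconditioned library above the filter. LOC103346374 had 30, 60 and 26 counts against 5, 2 and 1 (log2 fold change -3.64 ± 0.68 SE, adjusted p = 0.0389 by edgeR), and LOC103346717 had 31, 36 and 20 against 4, 2 and 0 (log2 fold change -3.63 ± 0.79 SE, adjusted p = 0.0484 by edgeR). LOC127488805 had 18, 39 and 18 counts against 7, 0 and 0 and was not called by edgeR (adjusted p = 0.105), but DESeq2 called it (adjusted p = 0.0421), as did limma on log2(FPKM + 0.1) (adjusted p = 0.0461) and edgeR without preconditioned 1 (adjusted p = 0.0157). Of the 2 calls of edgeR, both were kept with no filter on low counts, and both were kept without preconditioned 1 and lost without any other library. Neither gene passed the filter of at least 1 CPM in 3 libraries. The other 6 copies had at most 17 counts in a library and did not pass the filter. With no filter all 10 copies were tested, and 6 of them were lower at an unadjusted p under 0.05, against 11.1% of all genes then tested, but only the same 2 were called. How the reads of these copies were divided is not given in the sources used here, so the calls on the small copies are uncertain for this reason as well as for the way they passed the filter.

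Below the sensors stand the adaptors, kinases and transcription factors that pass the signal on, and the 13 members among them had a median log2 fold change of 0.06, with 5 of 13 negative. The 7 genes of the adaptor, kinase and interferon regulatory factor list that lack the virus term lay lower, with a median of -0.63 and 7 of 7 negative (49.5% of all tested genes). Among these, IKBKE, a kinase related to TBK1, had 4095, 5463 and 5314 counts against 3459, 2113 and 2346 (log2 fold change -0.74 ± 0.19 SE, adjusted p = 0.0599 by edgeR), and TANK, which binds both kinases, had a log2 fold change of -0.0017. Of the 7, edgeR called none and DESeq2 called 1, IRF1 (4.17% of all genes called lower). MAVS, the mitochondrial adaptor of RIG-I and MDA5, had 754, 893 and 984 counts in the fresh and 1018, 570 and 572 in the preconditioned libraries (log2 fold change -0.12 ± 0.23 SE). TBK1 had 1896, 1864 and 2096 counts against 1995, 2315 and 2398, without overlap in CPM and with a log2 fold change of 0.38 ± 0.13 (SE, adjusted p = 0.102 by edgeR). IRF3, the transcription factor that TBK1 phosphorylates, had 2816, 2617 and 2743 counts against 2949, 2411 and 2365 (log2 fold change 0.09 ± 0.11 SE, -0.08 with library size alone). None of the 13 signalling members was called in either direction by edgeR, while DESeq2 called 1 lower, and 2 of them had a log2 fold change of -1 or less. STING1, the adaptor of cGAS, was low with 66, 204 and 65 counts against 64, 23 and 13 (log2 fold change -1.59 ± 0.70 SE, adjusted p = 0.175 by edgeR). NLRC5, an interferon-induced activator of the MHC class I genes, had 43, 249 and 133 counts against 59, 7 and 6 (log2 fold change -2.41 ± 1.0 SE, adjusted p = 0.158 by edgeR), and was the gene that DESeq2 called (log2 fold change -2.42, adjusted p = 0.0314). Both were highest in fresh 2, as most effectors were, and both were called without preconditioned 1, at adjusted p values of 0.0482 and 0.0204 by edgeR. IRF9, which carries the STAT proteins to the promoters of interferon-induced genes, had 2749, 3328 and 3039 counts against 2511, 1508 and 542, with no overlap (log2 fold change -0.85 ± 0.46 SE, adjusted p = 0.258 by edgeR). CD40, a costimulatory receptor, had 40 to 109 counts in the fresh and 46 to 111 in the preconditioned libraries.

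**Figure D4:**
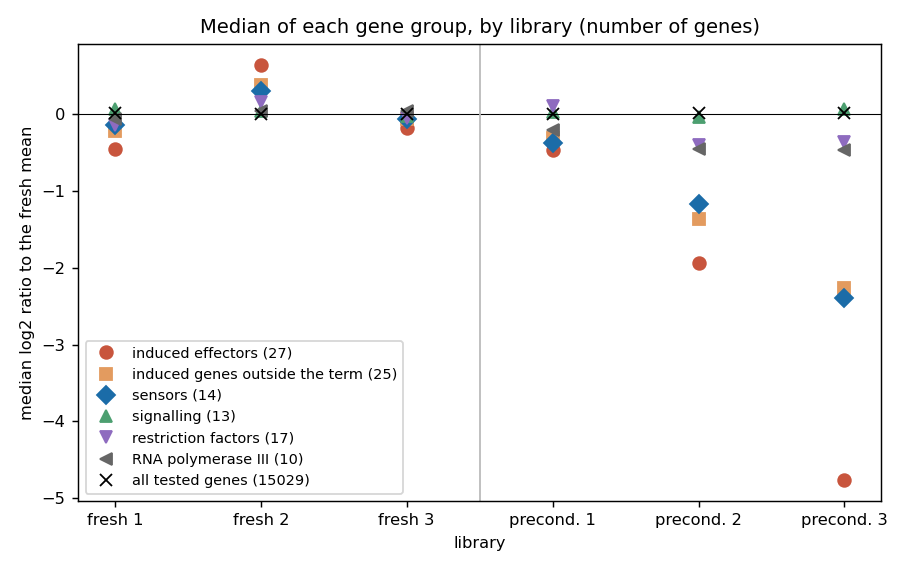
For each library the plotted point is the median over a gene group of the log2 ratio of CPM to the mean of the 3 fresh libraries, with the number of genes in parentheses and crosses for all tested genes. The effectors lie at 0.63 in fresh 2, -0.48 in preconditioned 1, -1.94 in preconditioned 2 and -4.76 in preconditioned 3, while the signalling genes stay near 0.

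The 4 interferon genes among the members were hardly detected. Other interferon genes, among them those of interferon lambda, are not members and are not described here. IFNB1 had at most 1 count in every library, and the pair of genes described as interferon alpha-21-like had at most 1 count each. IFNE, an interferon of epithelia that is not induced by viruses, had 1, 0 and 3 counts in the fresh libraries and 2, 3 and 19 in the preconditioned libraries, so that its highest count was in the library where the effectors were lowest. At these counts no difference between the groups was detectable, and none of these 4 genes was tested. IFNLR1, the receptor chain for interferon lambda, had 1451, 1618 and 1389 counts against 1808, 1795 and 2190. It was the only tested ligand or receptor among the members, its groups did not overlap, and its log2 fold change was 0.56 ± 0.14 (SE, adjusted p = 0.0606 by edgeR).

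The restriction factors act directly on viral nucleic acids or particles, and many are present without interferon. None of the 17 was called by edgeR, and 5 lay lower without overlap (18.8% of all tested genes). DESeq2 called 2 lower (4.17% of all genes), edgeR with library size alone 2 (2.81% of all genes), limma on log2(FPKM + 1) 1 (1.37% of all genes) and limma on log2(FPKM + 0.1) 3 (2.99% of all genes). For the 17, the medians in preconditioned 1, 2 and 3 were 0.09, -0.41 and -0.38 as log2 ratios to the fresh mean. ADAR, the deaminase that edits double-stranded RNA, had 14355, 19530 and 15483 counts against 10969, 7350 and 5299 (log2 fold change -0.90 ± 0.24 SE, adjusted p = 0.0683 by edgeR). ZC3HAV1, the zinc finger antiviral protein, had 3310, 4555 and 3663 counts against 2652, 1585 and 1457 (log2 fold change -0.85 ± 0.23 SE, adjusted p = 0.0649 by edgeR). Both had separate groups and were just short of the fold cutoff, and both were called without preconditioned 1 (log2 fold changes -1.19 and -1.14) and with library size alone (log2 fold changes -1.07 and -1.02, adjusted p = 0.0462 and 0.0447 by edgeR). RNASE6, a secreted ribonuclease, had 15, 31 and 14 counts against 6, 3 and 1, and LOC100357938, described as schlafen family member 13, had 654, 930 and 920 against 453, 65 and 73. These were the only restriction factors with a log2 fold change of -1 or less (-2.38 and -1.94, adjusted p = 0.0758 and 0.132 by edgeR), and DESeq2 called both (adjusted p = 0.0436 and 0.0139). No preconditioned library of RNASE6 was above the filter. APOBEC3A had 2614, 14904 and 3248 counts against 12035, 5139 and 666. Its groups had nearly the same mean (log2 fold change -0.08 ± 1.02 SE), although the highest library held 19.1 times the lowest, and the sign turned to 1.16 without fresh 2 and to 0.45 without preconditioned 3. SAMHD1, which depletes the nucleotides that viruses need, had 945, 1169 and 1126 counts against 1217, 1025 and 942 (log2 fold change 0.15 ± 0.13 SE, -0.02 with library size alone).

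A group of 10 members encodes subunits of RNA polymerase III, which transcribes foreign DNA in the cytosol into RNA that RIG-I can bind, besides its main work of making transfer RNAs. Their log2 fold changes were small, from -0.57 for CRCP to 0.23 for POLR3F, and 8 of 10 were negative. POLR3C had 2203, 2100 and 1888 counts in the fresh and 1625, 1306 and 1256 in the preconditioned libraries, and POLR3A had 1759, 2183 and 1859 against 1364, 1234 and 1408. In 5 of the 10 the preconditioned libraries lay below the fresh ones without overlap (18.8% of all tested genes), and none was called by edgeR (lowest adjusted p = 0.0976) or DESeq2. The median range between the preconditioned libraries was 0.27 on the log2(CPM + 1) scale, so these subunits did not show the spread of the effectors.

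Among the other members, LOC100338447, described as similar to S-phase kinase-associated protein 2, was called lower with 57, 100 and 25 counts against 4, 2 and 6 (log2 fold change -3.71 ± 0.71 SE, adjusted p = 0.0398 by edgeR). No preconditioned library was above the filter, so it was tested only because of the fresh ones, and with no filter it was still called (adjusted p = 0.0234 by edgeR). It was the only one of the 4 called members for which preconditioned 3 was not the lowest library. The call was kept without preconditioned 1 (adjusted p = 0.0272 by edgeR) and lost without any other library, at adjusted p values of 0.0634 to 0.148 by edgeR. SKP2 itself, a subunit of a ubiquitin ligase of the cell cycle, had 521, 629 and 598 counts against 462, 257 and 284 (log2 fold change -0.64 ± 0.23 SE, adjusted p = 0.120 by edgeR). The most positive fold changes were those of MCP-1, here a macrophage cationic peptide and not the chemokine of that name (13, 1 and 17 counts against 1, 49 and 1), and of LOC100351543, described as a subunit of the CCR4-NOT complex (335, 99 and 515 counts against 140, 186 and 933). Neither was called (adjusted p = 0.708 and 0.660 by edgeR), and the sign of each turned when 1 preconditioned library was left out, to -3.05 without preconditioned 2 for MCP-1 and to -0.79 without preconditioned 3 for LOC100351543. Of the 27 other members tested, 8 lay lower without overlap (18.8% of all tested genes) and 2 higher (17.9% of all tested genes), the autophagy gene BECN1 and the exocyst gene EXOC1, with log2 fold changes of 0.21 and 0.25. The 18 members that were not tested had at most 19 counts in any library, and they comprised 7 sensors, the 4 interferons and 7 other members.

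Beyond the virus term, the members shared other annotations of the table. Of the 127 members, 66 also carried the term for innate immune response (52.0%, against 1.24% of all tested genes), 32 that for response to virus, 26 that for binding double-stranded RNA, and 16 that for the type I interferon pathway. Of the 16 members with the term for negative regulation of viral genome replication, 11 were effectors. In RefSeq gene order, 31 of the members lay in 12 runs with at least 1 other member. Promoter, protein and transcript sequences of these genes were not used here.

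Interferon-induced genes that lack the virus term were taken from a list of textbook genes, of which 27 were in the table outside the members and 25 were tested. All 25 had negative log2 fold changes, which held for 49.5% of all tested genes, with a median of -1.07. None was called by edgeR, 7 had an unadjusted p under 0.05 (15.1% of all tested genes, lower), and DESeq2 called 2 lower. In 25 of 25, preconditioned 2 and 3 lay below all fresh libraries, against 38.7% and 38.6% of all tested genes, while preconditioned 1 lay within the fresh range in 16. USP18, which removes ISG15 from proteins and damps the interferon receptor, had 3045, 7517 and 4366 counts against 2906, 999 and 38. CMPK2, a mitochondrial nucleotide kinase, had 703, 3837 and 1181 counts against 991, 194 and 66, and XAF1, a proapoptotic factor, had 849, 1978 and 1152 against 1031, 207 and 20. In 24 of the 25 genes preconditioned 3 was the lowest library, and in 21 fresh 2 was the highest, so the same libraries stood out as among the members. The list was chosen with earlier results of these data known and was measured in the same libraries, so this is not independent evidence. PML, which organizes nuclear bodies, had 2867, 3937 and 3282 counts against 2101, 1453 and 1334 and an adjusted p of 0.0451 by edgeR, with a log2 fold change of -0.88 that was short of the cutoff. Counted over the whole textbook list, inside and outside the term, 40 genes were tested and none was called in either direction by edgeR. An unadjusted p under 0.05 was found in 11 of them, all lower, where 15.1% of all tested genes were lower at that p, and DESeq2 called 5 lower, where it called 4.17% of all genes lower. Without preconditioned 1, edgeR called 11 of the list lower, and 6.01% of all genes then tested.

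The receptors and the transcription factors that carry the interferon signal were measured as well. IFNAR1 and IFNAR2, the receptor chains for type I interferons, had log2 fold changes of -0.08 and 0.03, and the kinases JAK1 and TYK2 had -0.09 and 0.13. The chains of the interferon gamma receptor differed in opposite directions, each without overlap in CPM (18.8% of all tested genes lower, 17.9% higher). IFNGR1 had a log2 fold change of -0.70 ± 0.24 (SE, adjusted p = 0.111 by edgeR). For IFNGR2 it was 0.60 ± 0.19 (SE, adjusted p = 0.0878 by edgeR). LOC100344467, which RefSeq names STAT2, had 525, 1108 and 537 against 330, 251 and 284 (log2 fold change -1.15 ± 0.32 SE, adjusted p = 0.0690 by edgeR). IRF1, another interferon-induced transcription factor, had 1429, 2568 and 1511 against 1213, 621 and 491 (log2 fold change -1.09 ± 0.37 SE, adjusted p = 0.105 by edgeR). Both were lower with separate groups (18.8% of all tested genes), and in both the highest library was fresh 2. Of the 8 genes of the receptor and JAK-STAT list outside the term, edgeR called none and DESeq2 1, LOC100344467 (4.17% of all genes called lower). The 8 genes of the list of negative regulators outside the term had a median log2 fold change of -0.51. USP18 is in this list and is also counted among the interferon-induced genes outside the term above. Of the 8, edgeR called none and DESeq2 1, RNF125 (again 4.17% of all genes). SOCS1, which blocks the JAK kinases, had 31, 103 and 54 counts against 29, 25 and 20 (log2 fold change -1.17), and RNF125, a ubiquitin ligase that acts on RIG-I, had 552, 507 and 378 against 298, 137 and 201 (log2 fold change -1.02), both lower without overlap (18.8% of all tested genes). DUSP1, a phosphatase that limits MAP kinases, had 5387, 5029 and 7186 counts against 8024, 9873 and 10024 and an adjusted p of 0.0441 by edgeR at a log2 fold change of 0.85.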

How the data were processed

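RNA-seq counts of 3 fresh and 3 preconditioned libraries were analysed. The authors aligned the reads with hisat2 2.1.0 and counted them with htseq-count 0.11.2, and they deposited raw counts per gene. The deposited FPKM values were computed by the authors and were used here to compare levels between genes and in an alternative test. Genome build, annotation and strand setting are not given in the sources used here, so no coordinates are printed.

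Counts were tested over all genes in R 4.3.3 with edgeR 4.0.16 (filterByExpr, TMM, robust quasi-likelihood fit, group as the sole term), with Benjamini-Hochberg adjustment over the tested genes. CPM values use TMM-scaled library sizes, and log2 ratios to the fresh mean use a prior count of 2. Standard errors were derived from the F statistic. DESeq2 1.42.0 and limma 3.58.1 on log2(FPKM + 1) or log2(FPKM + 0.1) served as alternatives, beside other scalings, filters, a replicate block and leaving out each library. The scripts were tested on simulated counts. The libraries held 31952352 to 34327534 counts, and the standard errors hold the spread between libraries as well as counting error. A tested gene was said to have no library of a group above the filter when none reached 10 counts at the median library size; this was computed after the calls were seen.

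The members, their roles and the gene lists were chosen with earlier results of these data known. Named genes were a core of textbook members, the members called, the 5 highest and 5 lowest log2 fold changes, the 5 highest mean FPKM values and the 5 widest ranges within a group, with other genes named for their role after their values were seen. LOC identifiers were matched to RefSeq names by gene identifier (118 of 127 members). The authors' annotation columns were used only for names and GO terms. A few genes are not reported here.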

Additional observations from a re-analysis of the deposited data

How the results depend on the processing

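No member and no gene of the textbook list was called higher under any alternative, and the median log2 fold change of the tested members stayed negative, from -0.33 to -0.70 over the fits that left out 1 library (lowest without preconditioned 1) and from -0.37 to -0.57 under the others. The count of members called lower, 4, became 13 with DESeq2, 7 with limma on log2(FPKM + 0.1), 1 with a filter of at least 1 CPM in 3 libraries and 0 with the replicate block, and ran from 0 to 18 over the fits without 1 library. Of the 40 tested genes of the textbook list, where none was called, DESeq2 called 5 lower, library size alone 1, limma on log2(FPKM + 1) and on log2(FPKM + 0.1) 1 each, and edgeR with no fold cutoff 1, with 0 to 11 over the fits without 1 library. Members higher without overlap, 4, became 1 with library size alone (10.5% of all genes, against 17.9%) and 5 to 11 without 1 library, and members lower without overlap, 42, became 53 with library size alone (28.3% of all genes, against 18.8%) and 42 to 69 without 1 library. With fewer libraries groups separate more readily in all genes. Their share lower without overlap went from 18.8% to between 21.1% and 30.2%, and their share higher from 17.9% to between 20.1% and 28.4%. The rises without 1 library are therefore not by themselves a result about the members, and their cause was not tested. Members lower without overlap numbered 69 without preconditioned 1 (30.2% of all genes), 52 without fresh 1 (23.1%) and 42 to 44 without any other library. The largest counts in both directions came without preconditioned 1. With library size alone, the median of all genes moved to -0.16, and 74.9% of all calls were lower, against 52.6% with TMM. Over all genes, DESeq2 called 1190 and the replicate block 30, against 344, and leaving out 1 library gave 14 to 1546.

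The sign of 8 genes chosen by the naming rule turned under at least 1 alternative, and the cause was not tested. These were IRF3 (-0.0792 with library size alone, -0.0812 and -0.0833 with limma at pseudocounts of 1 and 0.1), SAMHD1 (-0.0212, -0.0200 and -0.0221 in the same order) and MCP-1 (-0.68 with the replicate block, -0.35 with limma on log2(FPKM + 0.1)). Over the fits that left out 1 library, the log2 fold change ran from -3.05 to 1.45 for MCP-1, from -1.08 to 1.16 for APOBEC3A, from -0.30 to 0.14 for ISG20, from -0.42 to 0.0185 for MAVS, from -0.79 to 1.12 for LOC100351543 and from -0.14 to 1.30 for LOC127485854. None of the other tested genes that the naming rule chose changed sign, and the genes named outside the rule were not examined this way. Replicate numbers are shared between the groups in the labels, but same-numbered libraries did not deviate together (correlations -0.109 to -0.067), so the block with its 0 members called lower is not a paired analysis. An exact permutation test of 1 gene cannot pass 0.05 in this design, and the 18 members with at most 19 counts in any library did not pass the filter, with none of them called when no filter was used. The search for an interferon-response motif in promoters was not run, because no promoter sequences were used here.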
